A study of Mus musculus with 8 samples.

Results

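The genes of the proteasome and of its activators were followed across 4 groups of sorted mouse CD4 T cells. Members were all genes whose platform symbol starts with Psm, a letter from a to g and a digit. The rule took 45 genes read by 67 probes, out of 16593 gene symbols and 25697 probes on the array. Of these, 43 genes and 59 probes were detected on at least 2 arrays and entered the tests, among 7926 genes tested in all. Psma1 and Psma6, both of the alpha ring of the core, had 1 probe each, which was detected on 0 of 8 arrays. Psmc3ip, a factor of meiotic recombination, and Psme3ip1, a protein that binds the activator Psme3, met the rule by symbol only and are no subunits. Psmd3, Psmf1, Psmg4, Psma8, Psmb11 and Psme2b were not analysed here.

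RNA came from 8 one-colour Illumina arrays, 2 per group, of C57BL/6 T cells that had matured in mixed bone marrow chimeras for more than 8 weeks. The recipients were B6.CD45.1 mice, lethally irradiated with 1200 rads in a split dose, and every group came from such hosts. One marrow donor was NIKtg/CD4Cre/Foxp3RFP, in which a transgene for the kinase NIK (gene Map3k14) at the ROSA26 locus was combined with Cre recombinase under the CD4 promoter. The other, the WT donor, was B6.Thy1.1/Foxp3RFP. Regulatory T cells (Treg) were sorted as CD4+ and RFP+, where RFP reports the Treg factor Foxp3, and conventional T cells (Tconv) as CD4+ and RFP-. WT cells were gated as Thy1.1+ and GFP-, and NIKtg cells as Thy1.1- and GFP+. NIKtg and WT cells thus differed in the Thy1 allele, in GFP and in Cre as well as in the transgene. Whether the replicates of a group are separate animals is not in the labels. The p-values therefore cover the spread between arrays alone, and that spread may be technical.

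The proteasome is the protease that breaks down ubiquitin-tagged proteins. Its 20S core is a barrel of rings built from alpha subunits (Psma genes) at the ends and beta subunits (Psmb genes) in the middle, and some of the beta subunits are the proteases. The 19S regulator that caps the barrel binds ubiquitin, unfolds the substrate with ATPases (Psmc genes) and feeds it in with the help of non-ATPase subunits (Psmd genes). In lymphocytes, and in other cells under interferon gamma, the proteases Psmb8, Psmb9 and Psmb10 replace Psmb5, Psmb6 and Psmb7 in newly built cores. The resulting immunoproteasome cuts peptides that suit presentation on class I molecules. NIK acts on the precursor protein made from Nfkb2, which the proteasome then trims to an active NF-kB subunit.

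Within a group the arrays correlated at r between 0.989 and 0.994, and between groups at 0.922 to 0.973. This was over the 7926 genes tested, each by its brightest kept probe. The mean unnormalized intensity of an array was smallest in NIKtg Treg (461 and 474) and reached 777 on 1 NIKtg Tconv array. The brightest probes of the 43 members tested took 0.791% to 0.855% of the summed intensity. Foxp3 rose in Treg over Tconv by 5.07 (SE 0.33, adjusted p = 0.000106) in WT and by 6.71 (SE 0.33, adjusted p = 3.1e-05) in NIKtg cells on the log2 scale. The probe for Map3k14 did not read higher on the arrays labelled NIKtg. The log2 difference in Treg was 0.09 (SE 0.10, adjusted p = 0.578), and that in Tconv was -0.52 (SE 0.10, adjusted p = 0.0105). The sources used here give neither the place of that probe in the transcript nor whether the transgene holds that stretch. NIKtg is therefore used below as an array label. Nfkb2, a gene of the pathway, rose by 1.01 (SE 0.11, adjusted p = 0.00216) in NIKtg Treg and by 1.45 (SE 0.11, adjusted p = 0.000333) in NIKtg Tconv.

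Markers of other states and cell types differed between the groups, and their part in the results below was not tested. The 7 Treg markers, all detected, summed to 42374 to 44310 (WT Treg), 25262 to 29142 (NIKtg Treg), 3787 to 3953 (WT Tconv) and 3747 to 3948 (NIKtg Tconv) in normalized signal. In NIKtg against WT Treg, 4 of the 7 were lower and 0 higher, with a median of -0.82. These were Itgae (-1.36, adjusted p = 0.00952), Tnfrsf18 (-1.003, adjusted p = 0.0122), Ctla4 (-0.96, adjusted p = 0.00688) and Tnfrsf4 (-0.82, adjusted p = 0.00974), and this shift moves with each NIKtg against WT result in Treg below. Of 12 proliferation genes, 9 were tested. NIKtg Tconv had 5 higher and 1 lower, NIKtg Treg 1 higher and 4 lower, each against WT. Their summed normalized signal was 3797 to 3869 (WT Treg), 3294 to 3508 (NIKtg Treg), 3696 to 3965 (WT Tconv) and 4637 to 4836 (NIKtg Tconv), with Ccna2 not detected on any array. The 8 B cell markers with a probe (of 10) summed, in the same order, to 2447 to 2836, 3889 to 4250, 679 to 827 and 1595 to 1676, and Blnk, Ebf1 and Pax5 were not detected on any array. These sums combine opposite changes. Of 3 tested in NIKtg against WT, Cd74 was called higher in Treg (1.05) and Tconv (1.69). Cd79b (-0.47 and -0.61) and Fcmr (-1.65 and -0.68) were called lower in both. The 11 myeloid and dendritic cell markers with a probe (of 14) summed to 3686 to 3825, 2969 to 3242, 2499 to 2576 and 2526 to 2804 in the same order, with Cd14, Itgam, Itgax and S100a9 not detected anywhere. Of 6 tested in NIKtg against WT, 3 were called lower and 0 higher in each subset. Adgre1 was the lowest, with -1.83 in Treg and -1.47 in Tconv. The 8 CD8 and NK cell markers summed to 1076 to 1115, 1207 to 1354, 2941 to 4524 and 2507 to 2773 in the same order of groups, with Cd8a, Gzmb and Ncr1 not detected anywhere. Of 5 tested in NIKtg against WT Tconv, 3 were called lower and 1 higher, with a median of -1.25. They ran from -2.96 (Klrb1c) to 1.23 (Xcl1). In Treg 0 were called. In sorted populations, fewer cells of a type and less RNA per cell cannot be told apart.

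Most proteasome genes, each read by its brightest kept probe, had small log2 differences between groups. The members were bright, with a mean log2 signal of 10.41 to 10.50 on an array, against 8.54 to 8.60 over all genes tested. The part of brightness in the shares below was not tested. Dimmer probes of some members moved further, as given with the probes below. In NIKtg against WT Treg, 40 of the 43 members tested (93%) had a log2 difference under 0.5 in size, against 78.3% of all genes tested. In NIKtg against WT Tconv this held for 41 members (95.3%, against 73.5% of all genes), and in WT Treg against WT Tconv also for 41 (95.3%, against 76.9%). In NIKtg Treg against NIKtg Tconv it held for 35 (81.4%, against 66.1%). For the NIKtg-WT difference in Treg minus that in Tconv it held for 25 (58.1%), near the 53.3% of all genes. For NIKtg against WT, the median over the members was 0.09 in Treg and -0.02 in Tconv, and that over all genes was 0.06 and -0.08.

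Calls were made by limma at an adjusted p under 0.05. In NIKtg against WT Treg, 6 members were called, 4 higher and 2 lower, while 19.7% of all genes were (10.3% higher and 9.37% lower). In NIKtg against WT Tconv, 9 members were called, 6 higher and 3 lower, beside 30% of all genes (12.8% higher and 17.2% lower). The NIKtg-WT difference in Treg minus that in Tconv, called the interaction below, passed the threshold for 13 members, 7 of them more positive in Treg, beside 39% of all genes (23% more positive and 16% more negative). WT Treg and WT Tconv differed in 4 members, 3 of them higher in Treg, beside 23.9% of all genes (11.1% higher and 12.8% lower). NIKtg Treg and NIKtg Tconv differed in 18 members, 12 of them higher in Treg, beside 39.8% of all genes (23% higher and 16.8% lower). Without the detection filter, which tests more genes, 2 members were called in NIKtg against WT Treg and 2 in NIKtg against WT Tconv. The interaction then had 7 called, and WT Treg against WT Tconv 2. Of all genes, 7.73%, 11%, 16% and 8.84% were called there, in the same order. The comparisons share arrays, so a member called in several of them is partly the same measurement. Groups of 2 arrays often did not overlap. This held for 72.1% of members in NIKtg against WT Treg (65.9% of all genes) and for 72.1% in Tconv (70.1%). It held for 51.2% in WT Treg against WT Tconv (66.3%) and for 79.1% in NIKtg Treg against NIKtg Tconv (74.2%).

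The direction of many calls is relative to the bulk of genes on an array. With each array only centred on its median, without background correction or quantile normalization, the median of all genes itself moved to -0.32 for NIKtg minus WT in Treg, 0.14 in Tconv, -0.46 for the interaction and -0.48 for Treg minus Tconv in NIKtg cells. On that scale 0 members were called higher and 14 lower in NIKtg Treg, and 9 higher and 0 lower in NIKtg Tconv. For the interaction 0 were higher and 20 lower, and in NIKtg Treg against NIKtg Tconv 0 were higher and 29 lower. Of all genes, 33.3%, 22%, 42.4% and 62.6% were called there in either direction, in the same order. In WT Treg against WT Tconv 1 was called, and it was higher, beside 12.2% of all genes called in either direction. An offset of 50 in the background correction gave 5 higher and 4 lower in NIKtg Treg, beside 23% of all genes. In NIKtg Tconv it gave 7 higher and 2 lower, beside 32.8%. Set against the median of all genes, each called member kept its sign under median centring (6 of 6, 9 of 9, 13 of 13, 4 of 4 and 18 of 18 in the order above). All directions given here are therefore relative to the genes as a whole.

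The catalytic subunits carry the comparison of immunoproteasome and constitutive proteasome. In WT cells Psmb8, the immunoproteasome counterpart of Psmb5, was the 1 catalytic gene called as different between Treg and Tconv. Psmb8 read 9.94 and 10.01 on the WT Treg arrays, 9.45 and 9.82 on NIKtg Treg, 9.18 and 9.39 on WT Tconv and 9.84 and 9.54 on NIKtg Tconv (log2 normalized intensity, as for all levels below). Both WT Treg arrays lay above the other 6 and both WT Tconv arrays below, while the NIKtg groups overlapped each other. Psmb8 was higher in WT Treg than in WT Tconv by 0.69 (SE 0.16, adjusted p = 0.0213). The call was lost without WT Treg replicate 1, WT Treg replicate 2 or WT Tconv replicate 1 (adjusted p 0.0814 to 0.115). In NIKtg cells the same difference was -0.06 (SE 0.16, adjusted p = 0.794, 95% interval -0.44 to 0.32).

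The NIKtg-WT difference of Psmb8 was -0.34 (SE 0.16, adjusted p = 0.175) in Treg and 0.41 (SE 0.16, adjusted p = 0.0972) in Tconv, so neither was called. The interaction was -0.75 (SE 0.23, adjusted p = 0.037). That call was lost without either WT Treg array, NIKtg Treg replicate 1, WT Tconv replicate 1 or NIKtg Tconv replicate 1 (adjusted p 0.0821 to 0.118).

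Psmb9, which takes the place of Psmb6, was called in no comparison. It read 12.88 and 12.90 on WT Treg, 12.98 and 12.79 on NIKtg Treg, 12.76 and 12.86 on WT Tconv and 12.65 and 12.80 on NIKtg Tconv. The groups overlapped in NIKtg against WT in both subsets. The NIKtg-WT difference of Psmb9 was -0.00 in Treg (95% interval -0.27 to 0.26) and -0.08 in Tconv (95% interval -0.35 to 0.18).

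Psmb10, which takes the place of Psmb7, read 12.18 and 11.81 on WT Treg, 12.55 and 12.27 on NIKtg Treg, 12.14 and 11.94 on WT Tconv and 11.91 and 11.76 on NIKtg Tconv. Both NIKtg Treg arrays were above the other 6. Psmb10 was higher in NIKtg Treg than in NIKtg Tconv by 0.57 (SE 0.16, adjusted p = 0.0275), a difference of -0.10 under median centring. Its second probe gave 0.55 (adjusted p = 0.0234). The call was lost without NIKtg Treg replicate 1 or either NIKtg Tconv array (adjusted p 0.0724 to 0.135). NIKtg against WT gave 0.41 in Treg (SE 0.16, adjusted p = 0.114) and -0.20 in Tconv (SE 0.16, adjusted p = 0.379).

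Of the constitutive proteases, Psmb5, of chymotrypsin-like specificity, read 9.96 and 9.94 on WT Treg, 10.22 and 10.36 on NIKtg Treg, 9.79 and 9.80 on WT Tconv and 10.06 and 9.97 on NIKtg Tconv. In both subsets the NIKtg arrays lay above the WT arrays. NIKtg against WT gave 0.34 in Treg (SE 0.10, adjusted p = 0.0512) and 0.22 in Tconv (SE 0.10, adjusted p = 0.14), and neither passed the threshold. Psmb5 was -0.16 in Treg under median centring.

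Psmb6, of caspase-like specificity, read 11.33 and 11.45 on WT Treg, 11.62 and 11.63 on NIKtg Treg, 11.22 and 11.33 on WT Tconv and 11.31 and 11.20 on NIKtg Tconv. Psmb7, of trypsin-like specificity, read 10.23 and 10.004, 10.21 and 10.28, 10.40 and 9.93, and 9.58 and 9.83 in the same order of groups. Psmb6 was highest on the NIKtg Treg arrays, and Psmb7, by the brightest of its 3 kept probes, was lowest on the NIKtg Tconv arrays. Its other kept probes were highest there, with 9.75 and 9.71, and with 10.004 and 9.79. In a limma fit of all probes, NIKtg against WT Tconv gave -0.46 (adjusted p = 0.0928) for the brightest. The others gave 0.20 (adjusted p = 0.216) and 0.67 (adjusted p = 0.0296). In Treg the same probes gave 0.12, 0.02 and -0.35, none called. In NIKtg Treg against NIKtg Tconv, Psmb6 was higher by 0.37 (SE 0.10, adjusted p = 0.0263) and Psmb7 by 0.54 (SE 0.18, adjusted p = 0.0458), and median centring turned both signs (-0.31 and -0.20). The mean over the probes of Psmb7 also turned its sign (-0.23). The call for Psmb6 was lost without either NIKtg Treg or either NIKtg Tconv array (adjusted p 0.0624 to 0.122), and that for Psmb7 without any 1 of the Treg arrays or of the NIKtg Tconv arrays (adjusted p 0.061 to 0.215).

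**Figure D1:**
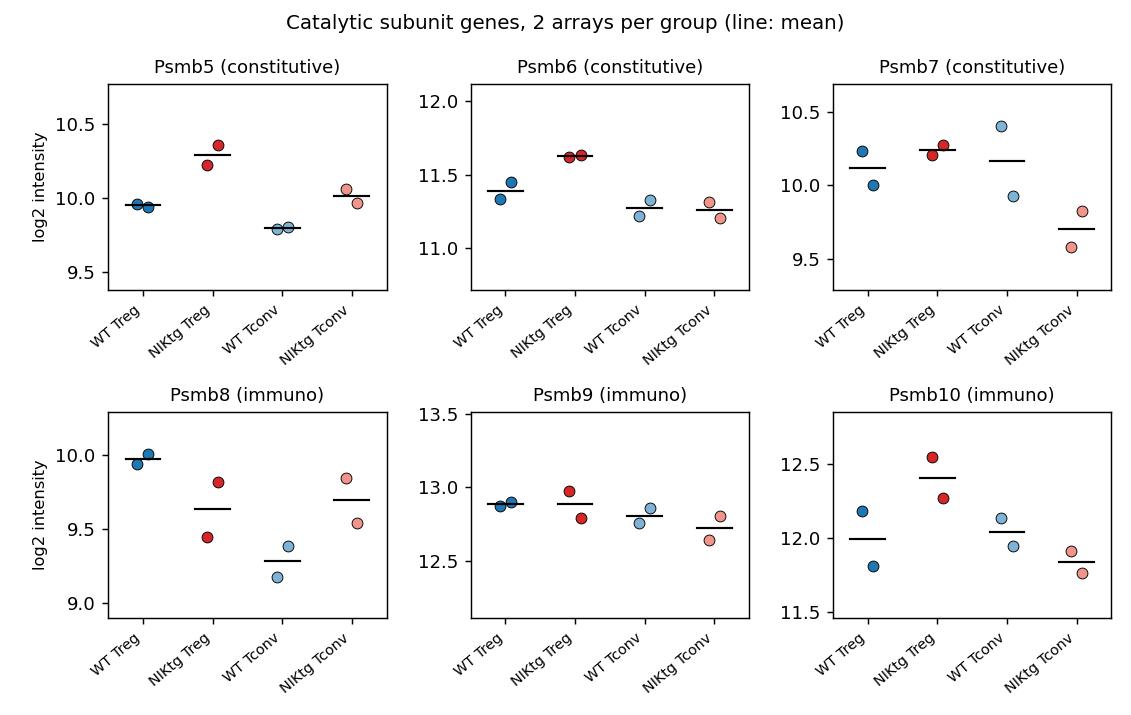
Log2 normalized intensity of the 6 catalytic subunit genes on each of the 8 arrays, by group, with points for arrays and a line for the mean of 2. Each axis spans the same range of log2 units, but the levels of different genes have no common scale. Psmb8 reads 9.94 and 10.01 on WT Treg and 9.18 and 9.39 on WT Tconv, while the Psmb9 groups stay between 12.65 and 12.98.

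The balance of immunoproteasome to constitutive signal was taken per array as the mean of Psmb8, Psmb9 and Psmb10 minus the mean of Psmb5, Psmb6 and Psmb7. Only its change between arrays can be read, since probes of different genes have no common scale. WT Treg had 1.16 and 1.11, NIKtg Treg 0.97 and 0.87, WT Tconv 0.89 and 1.04, and NIKtg Tconv 1.15 and 1.04. Both NIKtg Treg arrays lay below both WT Treg arrays, and the Tconv groups overlapped. The NIKtg-WT difference of this score was -0.21 in Treg and 0.13 in Tconv. Treg minus Tconv was 0.17 in WT and -0.17 in NIKtg cells. With the mean over all kept probes of each gene, the Tconv value became -0.05 and the Treg minus Tconv value in NIKtg cells 0.08, and no test was made of this score.

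Taken by pairs, NIKtg minus WT in Treg was -0.69 for Psmb8 with Psmb5, -0.24 for Psmb9 with Psmb6 and 0.29 for Psmb10 with Psmb7. In Tconv the same pairs gave 0.19, -0.07 and 0.26. Each gene was read by its brightest probe, and the probes of Psmb7 disagreed, as given above. The log2 ratio of Psmb8 to Psmb5 was -0.02 and 0.07 for WT Treg, -0.78 and -0.54 for NIKtg Treg, -0.61 and -0.41 for WT Tconv and -0.21 and -0.43 for NIKtg Tconv. WT Treg stood above the other 6 arrays. Averaged over both subsets, NIKtg minus WT was -0.25 for Psmb8 with Psmb5 (exact permutation p = 0.278), where the subsets had opposite signs. The average was -0.15 for Psmb9 with Psmb6 (exact permutation p = 0.167) and 0.27 for Psmb10 with Psmb7 (exact permutation p = 0.167). Such an average does not test the Treg change alone. These two-sided tests permuted labels within Treg and within Tconv over 36 arrangements, so that 0.0556 is the smallest p they allow and 0.05 cannot be reached. Adjusted over the 3 pairs the values were 0.278, 0.25 and 0.25.

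**Figure D2:**
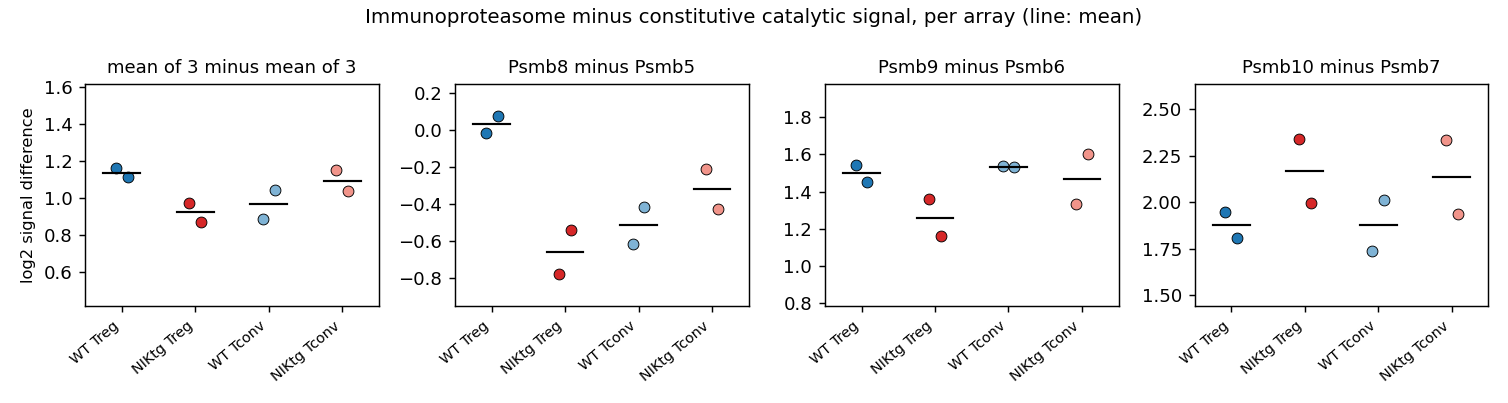
Immunoproteasome minus constitutive catalytic signal on each array, in log2 units, as the mean over 3 genes each (left) and for the pairs Psmb8 and Psmb5, Psmb9 and Psmb6, and Psmb10 and Psmb7. Points are arrays and lines are means of 2. The Psmb8 to Psmb5 values of WT Treg (-0.02 and 0.07) stand above all others, and the Psmb10 to Psmb7 values spread by as much within NIKtg groups as between groups.

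The start regions of Psmb8, Psmb9 and Psmb10 and of the activator genes Psme1 and Psme2, described further on, are shown because interferon gamma is known to induce these genes. Each holds 250 bases before and 50 bases after the annotated start, 5′ to 3′, from RefSeq on GRCm38.p6, at chr17:34197945-34198244 on the plus strand (Psmb8), chr17:34187281-34187580 on the minus strand (Psmb9), chr8:105938343-105938642 on the minus strand (Psmb10), chr14:55578244-55578543 on the plus strand (Psme1) and chr14:55591052-55591351 on the minus strand (Psme2). Capitals mark letters that match, on either strand, TTCNNNGAA (the gamma-activated site), GAAANNGAAA (the core of the interferon-stimulated element), GGGNNNNNCC (the kappa-B core) or TGACNNNGC (the core of the antioxidant response element). Matches may overlap.
Psmb8: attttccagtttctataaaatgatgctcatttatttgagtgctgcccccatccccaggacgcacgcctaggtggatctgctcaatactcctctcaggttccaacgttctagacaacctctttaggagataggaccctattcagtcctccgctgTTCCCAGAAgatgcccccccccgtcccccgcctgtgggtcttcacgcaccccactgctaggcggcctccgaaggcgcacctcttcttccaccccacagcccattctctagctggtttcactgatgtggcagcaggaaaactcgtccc
Psmb9: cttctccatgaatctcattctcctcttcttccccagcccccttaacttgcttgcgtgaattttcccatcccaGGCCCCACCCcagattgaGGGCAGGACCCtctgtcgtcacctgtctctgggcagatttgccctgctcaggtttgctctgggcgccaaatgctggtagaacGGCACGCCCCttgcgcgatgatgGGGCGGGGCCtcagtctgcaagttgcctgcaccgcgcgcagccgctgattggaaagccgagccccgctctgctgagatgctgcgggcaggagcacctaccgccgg
Psmb10: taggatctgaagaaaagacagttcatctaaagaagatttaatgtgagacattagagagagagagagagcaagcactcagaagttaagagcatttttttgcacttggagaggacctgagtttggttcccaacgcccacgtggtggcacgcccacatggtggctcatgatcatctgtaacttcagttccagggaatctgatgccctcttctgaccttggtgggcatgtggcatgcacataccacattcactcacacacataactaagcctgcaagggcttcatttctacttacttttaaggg
Psme1: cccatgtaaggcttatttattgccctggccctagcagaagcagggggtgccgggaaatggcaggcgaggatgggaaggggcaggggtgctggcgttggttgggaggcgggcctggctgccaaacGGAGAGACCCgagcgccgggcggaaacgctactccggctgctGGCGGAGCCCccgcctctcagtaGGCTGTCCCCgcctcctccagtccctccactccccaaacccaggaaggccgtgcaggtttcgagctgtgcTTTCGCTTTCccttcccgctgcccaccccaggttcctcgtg
Psme2: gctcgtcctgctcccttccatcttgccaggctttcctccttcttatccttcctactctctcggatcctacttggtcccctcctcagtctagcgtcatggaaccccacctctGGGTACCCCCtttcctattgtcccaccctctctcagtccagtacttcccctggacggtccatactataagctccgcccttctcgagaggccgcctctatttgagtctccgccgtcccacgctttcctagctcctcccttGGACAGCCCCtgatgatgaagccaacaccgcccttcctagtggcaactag
In Psmb8 the match was TTCCCAGAA, 97 bases before the annotated start. The window of Psmb10 held none of the 4 motifs. In Psmb9 all matches were to the kappa-B core, and Psme1 held both the kappa-B core and, after its start, the interferon-stimulated core. In Psme2 they were to the kappa-B core. Start regions were found for 39 of the 45 members. The gamma-activated site stood in 3 of them (7.69%, Psmb8, Psmd2 and Psmg1) and in 9.55% of the start regions of all 27025 genes in the table. The interferon-stimulated core stood in 4 (10.3%, Psmb3, Psmd4, Psmd9 and Psme1) against 3.99%, the kappa-B core in 23 (59%) against 53.52%, and the antioxidant element core in 6 (15.4%, Psmb5, Psmb6, Psmc6, Psmd12, Psmd9 and Psme4) against 13.99%. A match is a run of letters and not a shown binding site.

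The remaining 20S subunits form the body of the barrel. Of the 5 alpha ring genes tested, limma called 0 in NIKtg against WT Treg (2 at an unadjusted p under 0.05), while Psma4 and Psma7 were called in NIKtg against WT Tconv, both higher. Psma4 read 12.58 and 12.61 on WT Treg, 12.07 and 12.33 on NIKtg Treg, 12.14 and 12.19 on WT Tconv and 12.53 and 12.61 on NIKtg Tconv. WT Treg and NIKtg Tconv were thus high and the other groups low, without overlap. Psma4 rose in NIKtg Tconv by 0.40 (SE 0.12, adjusted p = 0.0365) and was -0.39 in NIKtg Treg (SE 0.12, adjusted p = 0.053). The interaction, -0.79 (SE 0.16, adjusted p = 0.00907), was called under each alternative run. Psma4 was also higher in WT Treg than WT Tconv by 0.43 (SE 0.12, adjusted p = 0.0343) and lower in NIKtg Treg than NIKtg Tconv, with -0.37 (SE 0.12, adjusted p = 0.0402). The Tconv and WT calls for Psma4 were lost without any 1 of the WT arrays or of the NIKtg Tconv arrays (adjusted p 0.063 to 0.143 and 0.0553 to 0.147), and the NIKtg call without any array but NIKtg Treg replicate 2 (adjusted p 0.0534 to 0.204).

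Psma7 showed the same order of groups, with 11.0005 and 11.11 on WT Treg, 10.73 and 10.85 on NIKtg Treg, 10.67 and 10.69 on WT Tconv and 11.10 and 11.002 on NIKtg Tconv. It rose in NIKtg Tconv by 0.37 (SE 0.10, adjusted p = 0.0328) and was higher in WT Treg than in WT Tconv by 0.38 (SE 0.10, adjusted p = 0.0364). Its interaction was -0.64 (SE 0.15, adjusted p = 0.0137). The first 2 of these calls were lost without any 1 of the WT arrays or of the NIKtg Tconv arrays (adjusted p 0.0533 to 0.161 and 0.0549 to 0.181), and the third without WT Treg replicate 2 or NIKtg Tconv replicate 1 (adjusted p 0.0501 to 0.0514). The other alpha genes tested, Psma2, Psma3 and Psma5, were called in no comparison.

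Among the 4 beta subunits that are no proteases, Psmb1 read 12.26 and 12.15 on WT Treg, 12.18 and 12.24 on NIKtg Treg, 12.34 and 12.23 on WT Tconv and 12.60 and 12.65 on NIKtg Tconv. The NIKtg Tconv arrays stood above the other 6, which overlapped. Psmb1 rose in NIKtg Tconv by 0.34 (SE 0.10, adjusted p = 0.0406), a call lost without any 1 of the 8 arrays (adjusted p 0.0504 to 0.144), and was -0.41 in NIKtg Treg against NIKtg Tconv (SE 0.10, adjusted p = 0.0153). The second call was lost without NIKtg Treg replicate 1 or either NIKtg Tconv array (adjusted p 0.0559 to 0.0738). Psmb2 was higher in NIKtg Treg than in NIKtg Tconv by 0.35 (SE 0.10, adjusted p = 0.0336; -0.33 under median centring), and this call was lost without either WT Treg array, either NIKtg Treg array or NIKtg Tconv replicate 2 (adjusted p 0.0584 to 0.166). The interaction of Psmb2 was 0.53 (SE 0.15, adjusted p = 0.0269; -0.15 under median centring), a call lost without either WT Treg array, NIKtg Treg replicate 1, either WT Tconv array or NIKtg Tconv replicate 2 (adjusted p 0.0529 to 0.081). Psmb3 and Psmb4 were called in no comparison.

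Of the 6 ATPases of the 19S base, limma called 0 in NIKtg against WT Treg and 0 in NIKtg against WT Tconv (0 and 0 at an unadjusted p under 0.05). Their NIKtg-WT differences ran from -0.11 (Psmc1) to 0.26 (Psmc6) in Treg and from -0.27 (Psmc5) to 0.14 (Psmc2) in Tconv. Psmc5 was higher in NIKtg Treg than in NIKtg Tconv by 0.54 (SE 0.13, adjusted p = 0.0126), but by -0.15 under median centring and by -0.19 for the mean of its probes. That call was lost without NIKtg Treg replicate 1 or NIKtg Tconv replicate 2 (adjusted p 0.0643 to 0.0719).

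The non-ATPase subunits of the 19S regulator moved in both directions. Of the 10 tested, limma called 0 in NIKtg against WT Treg (6 at an unadjusted p under 0.05). In NIKtg against WT Tconv, Psmd12 and Psmd8, both lid subunits, were higher. Psmd7, the lid partner of the deubiquitinase Psmd14, was lower by its brighter probe and higher by its dimmer probe, as given below. Psmd12 read 10.04 and 10.02 on WT Treg, 9.40 and 9.73 on NIKtg Treg, 9.79 and 9.57 on WT Tconv and 10.43 and 10.25 on NIKtg Tconv. The NIKtg Tconv arrays were the highest and the NIKtg Treg arrays were below both WT Treg arrays. Psmd12 rose in NIKtg Tconv by 0.66 (SE 0.15, adjusted p = 0.0143) and was -0.47 in NIKtg Treg (SE 0.15, adjusted p = 0.0605). The interaction was -1.13 (SE 0.21, adjusted p = 0.00568), and NIKtg Treg against NIKtg Tconv gave -0.78 (SE 0.15, adjusted p = 0.00528). Both of the latter calls held under each alternative run, and the Tconv call was lost without WT Tconv replicate 2 or NIKtg Tconv replicate 1 (adjusted p 0.0628 to 0.0977). Its second probe gave -0.65 for the interaction (SE 0.17, adjusted p = 0.0192).

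Other 19S subunits were called in 1 or 2 comparisons each. Psmd8 rose in NIKtg Tconv by 0.33 (SE 0.11, adjusted p = 0.05, just under the threshold), and the call was lost without any 1 of the 8 arrays (adjusted p 0.0512 to 0.19). Psmd1, a scaffold of the base, and Psmd13, of the lid, were higher in NIKtg Treg than in NIKtg Tconv by 0.46 (SE 0.13, adjusted p = 0.027) and 0.40 (SE 0.13, adjusted p = 0.0445), and median centring turned both signs (-0.26 and -0.29). Psmd1 was lost without any 1 of the 4 NIKtg arrays (adjusted p 0.0557 to 0.136), Psmd13 without either WT Treg array, NIKtg Treg replicate 1 or either NIKtg Tconv array (adjusted p 0.0718 to 0.194). Psmd2, the other large scaffold, was not detected on either NIKtg Treg array (5.67 and 5.51) and read 6.52 and 6.19 on NIKtg Tconv. Psmd2 was at least 1.39-fold lower in NIKtg Treg than in NIKtg Tconv (adjusted p = 0.0252), a bound that rests on the lowest signal detected on an array, and the call was lost without either NIKtg Treg array or NIKtg Tconv replicate 1 (adjusted p 0.0589 to 0.142). Psmd6, of the lid, was called for the interaction alone (-0.69, SE 0.20, adjusted p = 0.03), and its second probe gave 0.19. That call was lost without either WT Treg array, NIKtg Treg replicate 1, WT Tconv replicate 1 or either NIKtg Tconv array (adjusted p 0.0531 to 0.096). The deubiquitinase Psmd14 and the ubiquitin receptor Psmd4 were called in no comparison.

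Psmd5, Psmd9 and Psmd10 are chaperones that assemble the 19S base. Psmd5 read 6.26 and 6.17 on WT Treg, 4.64 and 5.38 on NIKtg Treg, 5.34 and 6.23 on WT Tconv and 6.76 and 6.80 on NIKtg Tconv, all in the dim range of the array. It was not detected on either NIKtg Treg array and was detected on 1 of the 2 WT Tconv arrays. The NIKtg Tconv arrays were the highest and the WT Tconv arrays lay far apart. Psmd5 was at least 1.27-fold lower in NIKtg than WT Treg (adjusted p = 0.0372) and at least 1.87-fold lower in NIKtg Treg than in NIKtg Tconv (adjusted p = 0.00441). The first call was lost without either WT Treg array, NIKtg Treg replicate 1 or either NIKtg Tconv array (adjusted p 0.0664 to 0.164), and the second was kept under each alternative run that kept its probe. The fitted interaction was -2.20 (SE 0.45, adjusted p = 0.00851), which is no bound, and NIKtg against WT Tconv just missed the threshold (0.99, SE 0.32, adjusted p = 0.0501).

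Psmd9, also a base chaperone, read 6.76 and 6.80 on WT Treg, 7.28 and 7.28 on NIKtg Treg, 6.91 and 6.84 on WT Tconv and 6.59 and 6.47 on NIKtg Tconv by its brighter probe. NIKtg Treg was the highest group and NIKtg Tconv the lowest, without overlap. By that probe Psmd9 rose in NIKtg Treg by 0.50 (SE 0.10, adjusted p = 0.0158) and fell in NIKtg Tconv, with -0.34 (SE 0.10, adjusted p = 0.0356). In a limma fit of all probes, the dimmer probe was called the other way in NIKtg Treg (-0.72, SE 0.17, adjusted p = 0.0264). The dimmer probe was not detected on either NIKtg Treg array, and in NIKtg Tconv it gave 0.37 (adjusted p = 0.146). The mean over the probes of Psmd9 gave -0.11 in Treg and 0.01 in Tconv, and median centring gave -0.09 in Treg. The Tconv value of Psmd9 was also not called with the deposited normalized values (adjusted p = 0.118), median centring (adjusted p = 0.977), an offset of 50 (adjusted p = 0.0634), no detection filter (adjusted p = 0.0692), only the groups compared (adjusted p = 0.0803) or trend and robust (adjusted p = 0.137), and 4 of 17 alternatives kept it. The Treg call by the brighter probe was lost without either WT Treg array or NIKtg Treg replicate 1 (adjusted p 0.0668 to 0.0887). The Tconv call was lost without any 1 of the WT arrays or of the NIKtg Tconv arrays (adjusted p 0.0626 to 0.151). The difference between NIKtg Treg and NIKtg Tconv, 0.74 (SE 0.10, adjusted p = 0.00124), was called with each array left out, and became -0.049 under median centring and -0.10 for the mean of probes. The third base chaperone, Psmd10, was called in no comparison by its brightest probe.

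Of the chaperones of the alpha ring, Psmg1 and Psmg2 work as a pair. Psmg1 rose in NIKtg Treg by 0.46 (SE 0.13, adjusted p = 0.0452; -0.08 under median centring) and Psmg2 in NIKtg Tconv by 0.32 (SE 0.10, adjusted p = 0.0479; -0.01 for the mean of its probes). Psmg1 read 8.59 and 8.64 on WT Treg and 9.20 and 8.95 on NIKtg Treg. Psmg2 read 9.76 and 9.84 on WT Tconv and 10.11 and 10.13 on NIKtg Tconv. Neither pair of groups overlapped. In NIKtg Treg against NIKtg Tconv, Psmg1 gave 0.41 (SE 0.13, adjusted p = 0.0364; -0.31 under median centring). The brighter probe of Psmg2 gave -0.38 there (SE 0.10, adjusted p = 0.0205), its second probe 0.28 (adjusted p = 0.229) and their mean -0.047, which was not called. Psmg1 was lost there without either WT Treg array, NIKtg Treg replicate 1 or either NIKtg Tconv array (adjusted p 0.0606 to 0.181), and Psmg2 without NIKtg Treg replicate 2 or either NIKtg Tconv array (adjusted p 0.0768 to 0.0863). The Treg call for Psmg1 was lost without the same 5 arrays (adjusted p 0.0743 to 0.208), and the Tconv call for Psmg2 without any 1 of the 8 arrays (adjusted p 0.0514 to 0.187). Psmc3ip, no subunit, rose in NIKtg Treg by 0.47 (SE 0.12, adjusted p = 0.0335; -0.09 under median centring) and was -0.50 in WT Treg against WT Tconv (SE 0.12, adjusted p = 0.0223). These calls were lost without either WT Treg array, NIKtg Treg replicate 1 or either NIKtg Tconv array (adjusted p 0.0578 to 0.17), and without WT Treg replicate 2 or WT Tconv replicate 1 (adjusted p 0.114 to 0.135).

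The activators open the barrel in place of the 19S regulator. Psme1 and Psme2 make up the cytosolic activator that interferon gamma induces, and Psme3 forms a nuclear one. Psme3 read 9.99 and 10.04 on WT Treg, 10.71 and 10.53 on NIKtg Treg, 10.24 and 10.32 on WT Tconv and 9.83 and 9.80 on NIKtg Tconv. The 4 groups did not overlap, with NIKtg Treg the highest and NIKtg Tconv the lowest. Psme3 rose in NIKtg Treg by 0.60 (SE 0.10, adjusted p = 0.00989) and fell in NIKtg Tconv, with -0.47 (SE 0.10, adjusted p = 0.015). The interaction was 1.07 (SE 0.15, adjusted p = 0.00214), and NIKtg Treg was above NIKtg Tconv by 0.81 (SE 0.10, adjusted p = 0.00115). Under median centring these Psme3 values kept their sign but were not called (0.10, -0.19, 0.29 and 0.07). The Treg call was lost without either WT Treg array or NIKtg Treg replicate 1 (adjusted p 0.0512 to 0.066) and the Tconv call without any 1 of the Tconv arrays (adjusted p 0.0505 to 0.0731).

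Of the partners Psme1 and Psme2, the second was called in NIKtg against WT Treg, and the gap between them was not tested. Psme1 read 13.49 and 13.48 on WT Treg, 13.65 and 13.51 on NIKtg Treg, 13.25 and 13.40 on WT Tconv and 13.19 and 13.31 on NIKtg Tconv. Psme2 read 9.35 and 9.36, 8.35 and 8.98, 8.81 and 8.99, and 8.92 and 8.80 in the same order. Both NIKtg Treg arrays were below both WT Treg arrays for Psme2, and they lay far apart from each other. Psme2 fell in NIKtg Treg, with -0.69 (SE 0.19, adjusted p = 0.0459), while Psme1 was 0.10 (SE 0.11, adjusted p = 0.559). The Psme2 call was lost without any array but NIKtg Treg replicate 2 (adjusted p 0.0581 to 0.159). In Tconv the NIKtg-WT difference was -0.04 for Psme2 (95% interval -0.49 to 0.42) and -0.07 for Psme1 (95% interval -0.33 to 0.18). Psme1 was higher in NIKtg Treg than NIKtg Tconv by 0.33 (SE 0.11, adjusted p = 0.0466; -0.27 under median centring), a call lost without any 1 of the 8 arrays (adjusted p 0.05 to 0.199). Psme4, another nuclear activator, was called in no comparison.

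**Figure D3:**
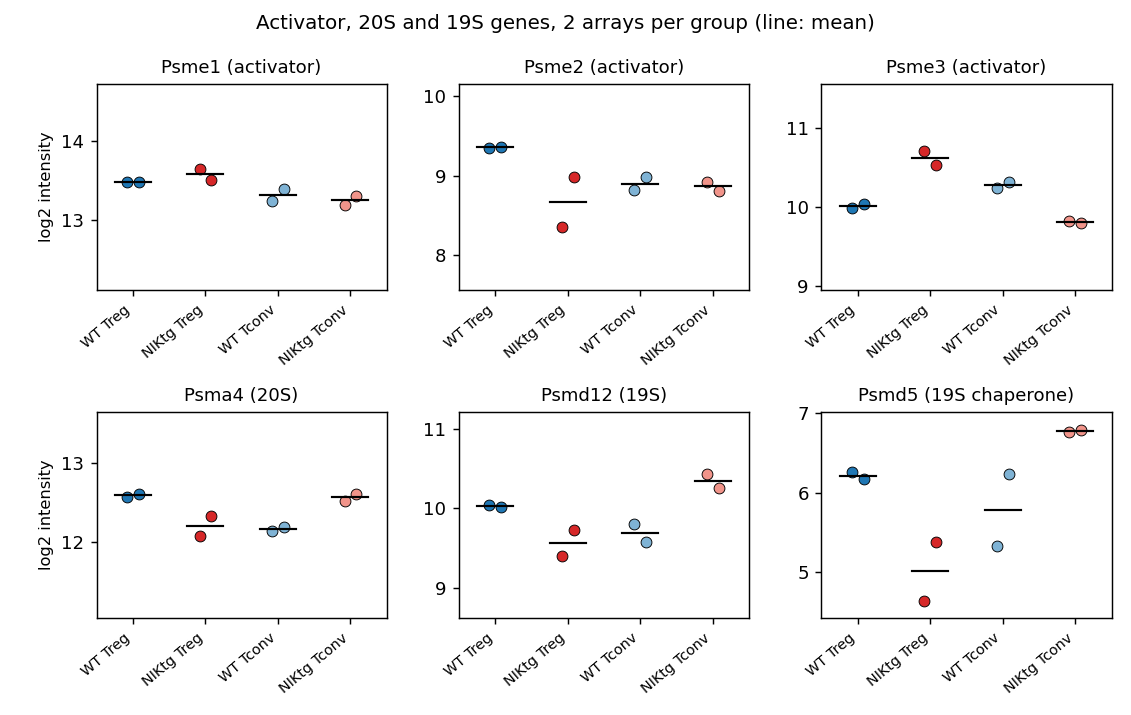
Log2 normalized intensity of 3 activator genes, the alpha subunit Psma4, the lid subunit Psmd12 and the base chaperone Psmd5 on each array, with a line for the mean of 2. Psme3 is highest on NIKtg Treg (10.71 and 10.53) and lowest on NIKtg Tconv (9.83 and 9.80). Psma4, Psmd12 and Psmd5 are high on NIKtg Tconv and low on NIKtg Treg.

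NIKtg-WT differences in Treg and in Tconv pointed opposite ways for 30 of the 43 members (69.8%), and for 67.2% of all genes tested, so the members did not stand out. Members called in both subsets were Psmd9 and Psme3, and both were called in opposite directions by their brightest probes, where the Tconv call of Psmd9 was lost in most alternatives, as given above. Of the 785 genes called in both subsets, 80.1% were called in opposite directions. The mean unnormalized intensity of the arrays moved with this pattern: WT Treg had 565 and 566, NIKtg Treg 461 and 474, WT Tconv 557 and 667, and NIKtg Tconv 618 and 777. Its part in the result was not tested.

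**Figure D4:**
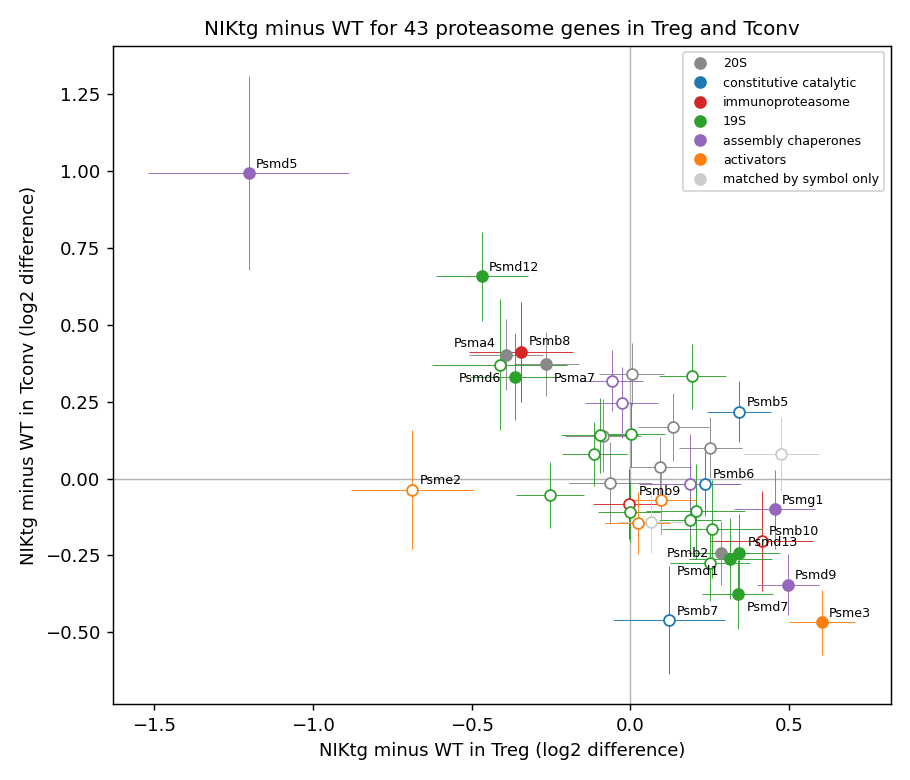
NIKtg minus WT in Treg (horizontal) and in Tconv (vertical) for the 43 members tested, as log2 differences with bars of 1 standard error, coloured by role. Filled points are the 13 members whose interaction was called by limma at an adjusted p under 0.05. Most members lie within 0.5 of 0 on both axes, and 30 of 43 lie in the upper left or lower right.

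Probes of a gene did not always agree. Of the 43 members tested, 14 had several kept probes, and these gave a single sign in 7 of 14 in NIKtg against WT Treg (50%, against 57.1% of genes with several kept probes) and in 7 of 14 in Tconv (50%, against 65.5%). In NIKtg Treg against NIKtg Tconv, 4 of 14 (28.6%) had probes called in both directions, against 5.7% of such genes, while 9 of 14 gave a single sign (64.3%, against 61.8%). These were Psmb7, Psmc5, Psmd7 and Psmd9. In a fit of all probes, the brighter probe of Psmd7 gave 0.44 (SE 0.12, adjusted p = 0.0196) and the dimmer -1.26 (SE 0.22, adjusted p = 0.00348). The probes of Psmc5 gave 0.54 (adjusted p = 0.0137) and -0.93 (adjusted p = 0.00223), and those of Psmb7 0.54 (adjusted p = 0.0472), -0.32 (adjusted p = 0.0537) and -0.91 (adjusted p = 0.00645). The dimmer probe of Psmd9 read 4.80 and 4.70 on NIKtg Treg, where it was not detected, and 5.71 and 5.68 on NIKtg Tconv, and it was detected on 3 of 8 arrays in all. In NIKtg against WT, Psmd9 had probes called in both directions in Treg, and Psmd7 in Tconv.

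The dimmer probe of Psmd7 carried the largest NIKtg-WT differences among the member probes detected on 8 arrays. It read 9.45 and 9.44 on WT Treg, 8.09 and 8.67 on NIKtg Treg, 8.35 and 8.79 on WT Tconv and 9.71 and 9.58 on NIKtg Tconv. It gave -1.06 in Treg (SE 0.22, adjusted p = 0.0155) and 1.07 in Tconv (SE 0.22, adjusted p = 0.0107), where the brighter probe gave 0.34 and -0.38. The interaction was 0.71 by the brighter probe (SE 0.16, adjusted p = 0.012), -0.05 for it under median centring and -0.71 for the mean of both probes. By the dimmer probe it was -2.13 (SE 0.30, adjusted p = 0.00223). The brighter Psmd7 call in Tconv was lost without any 1 of the WT arrays or of the NIKtg Tconv arrays (adjusted p 0.0583 to 0.156). The mean of both Psmd7 probes turned the sign in Tconv (0.35) and in NIKtg Treg against NIKtg Tconv (-0.41). The sources used here do not give the positions of these probes in the transcripts.

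Probes of further members also differed in call or sign. The dimmest of 3 probes of Psmd10 gave -0.67 (adjusted p = 0.0438) in NIKtg Treg and 0.89 (adjusted p = 0.013) in NIKtg Tconv, while the brightest gave -0.03 and 0.25. The dimmer probe of Psmc5 gave -0.74 (adjusted p = 0.013) in NIKtg Treg beside 0.25 by the brighter. In Tconv the probes of Psmd6 gave 0.33 and -0.04, those of Psmg2 0.32 and -0.34, and those of Psmd11 -0.05 and 0.26. For the interaction, the second probe of Psmb2 gave 0.13 (adjusted p = 0.509) beside 0.53. The probes of Psma7 were both called for the interaction in 1 direction (-1.06 and -0.64), and in NIKtg Treg against NIKtg Tconv its second probe alone was called (-0.60, adjusted p = 0.0172). The probes of Psme1 gave 0.10 and -0.05 in NIKtg Treg. Those of Psmb10, Psmd12 and Psme3ip1 had the same sign in NIKtg against WT in both subsets.

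**Figure D5:**
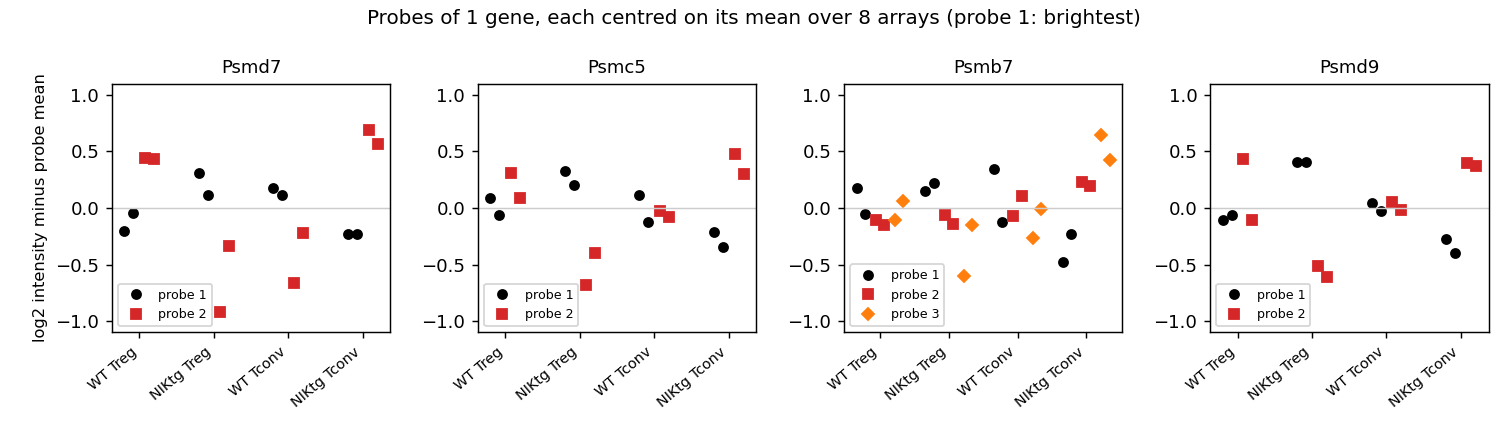
Log2 normalized intensity of each kept probe of Psmd7, Psmc5, Psmb7 and Psmd9 on the 8 arrays, each probe centred on its own mean, with probe 1 the brightest. In these 4 genes probe 1 is higher on NIKtg Treg than on NIKtg Tconv and the dimmest probe is lower.

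Genes that work with the proteasome were counted from lists of partners, regulators, ubiquitin enzymes and class I loading factors. Of 10 partners tested, Ubqln4, a ubiquitin shuttle, was the one called in NIKtg against WT in either subset. It rose by 0.45 (SE 0.11, adjusted p = 0.0303) in NIKtg Treg and gave -0.43 (SE 0.11, adjusted p = 0.0246) in NIKtg Tconv. Pomp, the chaperone that matures newly built cores, was called in no comparison (Treg -0.16, adjusted p = 0.363, and Tconv 0.03, adjusted p = 0.847). Of 13 regulators tested, 1 was higher and 1 lower in NIKtg Treg, and 3 were higher in NIKtg Tconv. Besides Nfkb2, these were Nfe2l2, a regulator of the antioxidant response, with -0.65 in Treg (SE 0.16, adjusted p = 0.0316), and Irf8 and Irf2 in Tconv with 0.74 (SE 0.15, adjusted p = 0.0106) and 0.47 (SE 0.13, adjusted p = 0.0335). Nfe2l1, which raises proteasome genes when the protease is inhibited, and Irf1, which drives the immunoproteasome genes under interferon, were called in no comparison. Relb was called in NIKtg against WT in neither subset (0.25, adjusted p = 0.115, and 0.24, adjusted p = 0.11). Of 4 ubiquitin enzymes tested, Ube2l6 gave -1.16 (SE 0.31, adjusted p = 0.0401) in NIKtg Treg, and Ube2n -0.69 (SE 0.13, adjusted p = 0.0079) in NIKtg Tconv.

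The class I loading factors, which receive the peptides, were lower in NIKtg Treg in 4 of 10 tested and higher in 0, with a median of -0.49. Of all genes, 9.37% were called lower there, and the median was 0.06. No alternative run is given here for these genes. Tapbp read 7.88 and 7.81 on WT Treg and 6.52 and 6.67 on NIKtg Treg, a difference of -1.25 (SE 0.13, adjusted p = 0.00172). Tap1, the peptide transporter whose gene lies beside Psmb9, read 10.15 and 10.18 on WT Treg and 9.62 and 9.62 on NIKtg Treg, a difference of -0.54 (SE 0.11, adjusted p = 0.0177). Erap1 and Pdia3 were the others called (-0.48 and -0.50). In NIKtg Tconv 1 was higher, Tapbp with 0.54 (SE 0.13, adjusted p = 0.0188). In WT Treg against WT Tconv, 3 of the 10 were called higher and 7 were not called, beside 11.1% of all genes called higher. The called ones were Tap1 (0.57, adjusted p = 0.0106), Tapbp (0.55, adjusted p = 0.0199) and Tapbpl (0.40, adjusted p = 0.0216). Of the 13 regulators, 4 were higher there and 1 lower, and the class I regulator Nlrc5 was among the higher (0.72, adjusted p = 0.00977). Psmb8 was also higher there, while Psmb9 (0.08) and Psmb10 (-0.04) were not called.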

How the data were processed

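Per the labels' protocols, RNA was extracted with RNeasy and labelled as biotinylated cRNA with MessageAmp Premier. GenomeStudio 2010.1 is named in the submitters' processing notes. The deposited table gives unnormalized probe intensities on a linear scale and, as GenomeStudio's output, a detection p-value per probe and array. The deposited normalized intensities have a linear scale and medians near 119 on each array, by a method not given in the sources used here, and were used as an alternative.

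Unnormalized intensities were background-corrected with limma 3.58.1 in R 4.3.3 (nec, with the negative controls inferred from the detection p-value, offset 16). Quantile normalization and log2 followed. A probe was kept where 2 or more arrays had its detection p under 0.01, which left 11526 of 25697. Of all probes, 23978 had 1 gene symbol in the platform annotation, 0 had several and 1719 were not listed. The brightest kept probe stood for each of 7926 genes. limma fitted 1 mean per group over all 8 arrays (lmFit and eBayes, two-sided), with Benjamini-Hochberg adjustment over all genes. A fold against a group whose arrays all lack detection is a bound, from the mean over arrays of the lowest detected signal.

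The members and gene lists were chosen with earlier results of these data known. Members past the threshold were named, up to 6 with the largest change in each direction, together with the catalytic subunits, Psme1 and Psme2, and further called members. The alternatives were the deposited normalized values, median centring, another offset, other filters, other rules for probes, other fits and each array left out. On simulated data of the Treg comparison over 7926 genes, the fit recovered 66 of 100 genes changed by 1 and 19 of 100 changed by 0.5 on the log2 scale, with 3 false calls. That simulation changed 100 genes of each size, while 19.7% of all genes were called in the measured Treg comparison. The unadjusted p needed for a call depends on this share, so the rates may differ from those of the data. The number of arrays limits the precision. Correlations between same-numbered replicates, as deviations from group means, were -0.02 to 0.14, and numbers were not treated as pairs.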

Additional observations from a re-analysis of the deposited data

Results flagged for a closer look

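The NIKtg-WT difference differed between Treg and Tconv for 13 members by limma's test of the interaction (adjusted p under 0.05), beside 39% of all genes. More positive in Treg were Psme3 (1.07, adjusted p = 0.00214), Psmd9 (0.84, adjusted p = 0.00394), Psmd7 (0.71, adjusted p = 0.012), Psmd13 (0.58, adjusted p = 0.0397), Psmd1 (0.58, adjusted p = 0.0434), Psmg1 (0.56, adjusted p = 0.0449) and Psmb2 (0.53, adjusted p = 0.0269). Median centring turned the sign of all of these but Psme3, which was then not called. Set against the median of all genes, which moved to -0.46 there, 13 of 13 called members kept their sign. In a limma fit of all probes, the dimmer probe of Psmd7 was called the other way (-2.13, adjusted p = 0.00223). So was that of Psmd9 (-1.09, adjusted p = 0.0118), which was detected on 3 of 8 arrays. Probes were called in both directions for 14.3% of members with several kept probes and for 5.46% of such genes. More negative in Treg were Psmd5 (-2.20, adjusted p = 0.00851), Psmd12 (-1.13, adjusted p = 0.00568), Psma4 (-0.79, adjusted p = 0.00907), Psmb8 (-0.75, adjusted p = 0.037), Psmd6 (-0.69, adjusted p = 0.03) and Psma7 (-0.64, adjusted p = 0.0137). The mean intensity of an array was smallest in NIKtg Treg, and its part in these results was not tested.

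Leaving out 1 array ended 7 of these calls. Psma7 was lost without WT Treg replicate 2 or NIKtg Tconv replicate 1 (adjusted p 0.0501 to 0.0514), and Psmb8 without either WT Treg array, NIKtg Treg replicate 1, WT Tconv replicate 1 or NIKtg Tconv replicate 1 (0.0821 to 0.118). Psmb2 was lost without either WT Treg array, NIKtg Treg replicate 1, either WT Tconv array or NIKtg Tconv replicate 2 (0.0529 to 0.081), and Psmd1 without any array but WT Tconv replicate 2 (0.0633 to 0.125). Psmd13 (0.0735 to 0.11), Psmd6 (0.0531 to 0.096) and Psmg1 (0.097 to 0.126) were lost without either WT Treg array, NIKtg Treg replicate 1, WT Tconv replicate 1 or either NIKtg Tconv array.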

How the results depend on the processing

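Of the 50 called values of members, 5 were kept in every alternative that could be run for them (Psma4 and Psmd12 for the interaction, Psmd12 for NIKtg Treg against NIKtg Tconv, and Psmd5 for both), 42 were lost in at least 1 alternative, 40 of them when an array was left out, and 26 reversed in at least 1. All 5 kept values were negative. Median centring moved the median of all genes to -0.46 for the interaction and to -0.48 for NIKtg Treg against NIKtg Tconv. On that scale negative changes are more readily kept and positive ones more readily reversed. Set against that median, 13 of 13 and 18 of 18 called members kept their sign. The cause of the lost and reversed calls was not tested. Median centring gave 14 members called in NIKtg against WT Treg (beside 33.3% of all genes) and 20 for the interaction (42.4%). It gave 1 for WT Treg against WT Tconv (12.2%) and 29 for NIKtg Treg against NIKtg Tconv (62.6%). It reversed Psmc3ip (-0.092), Psmd9 (-0.089) and Psmg1 (-0.075) in NIKtg Treg. For the interaction it reversed Psmb2 (-0.15), Psmd1 (-0.25), Psmd13 (-0.089), Psmd7 (-0.048), Psmd9 (-0.079), Psmg1 (-0.26) and Psmb5 (-0.60). For NIKtg Treg against NIKtg Tconv it reversed Psmb10 (-0.10), Psmb2 (-0.33), Psmb6 (-0.31), Psmb7 (-0.20), Psmc5 (-0.15), Psmd1 (-0.26), Psmd13 (-0.29), Psmd7 (-0.27), Psmd9 (-0.049), Psme1 (-0.27), Psmg1 (-0.31), Psmb9 (-0.42) and Psmb5 (-0.43). The mean of probes reversed Psmd9 in Treg (-0.11), Psmd7 (0.35), Psmd9 (0.012) and Psmg2 (-0.013) in Tconv, Psmd7 (-0.71) and Psmd9 (-0.13) for the interaction, and Psmb7 (-0.23), Psmc5 (-0.19), Psmd7 (-0.41) and Psmd9 (-0.10) for NIKtg Treg against NIKtg Tconv. The deposited normalized values gave 13 called members in Treg, beside 24.7% of all genes. Without a detection filter 2 were called in Treg (7.73% of all genes), 2 in Tconv (11%), 7 for the interaction (16%) and 2 in WT (8.84%). A fit of only the groups compared gave 3 in Treg (13.8%), 4 in Tconv (27.4%) and 11 for NIKtg Treg against NIKtg Tconv (35%). The eBayes fit with trend and robust gave 15 in Treg (25%) and 20 for the interaction (43.6%). Asking every kept probe to be called in 1 direction, a rule chosen after seeing the data, left 5 in Tconv and 11 in NIKtg Treg against NIKtg Tconv. The immunoproteasome score moved to -0.15 in Treg under median centring, and with the mean of probes to -0.054 in Tconv and 0.082 for NIKtg Treg against NIKtg Tconv. Leaving out each array gave 0 to 8 called members in Treg, 0 to 7 in Tconv, 6 to 15 for the interaction, 0 to 5 in WT and 5 to 16 in NIKtg cells. Counts of 0 by limma came without WT Treg replicate 1, WT Treg replicate 2 or NIKtg Treg replicate 1 in Treg (9, 9 and 7 at an unadjusted p under 0.05), without NIKtg Tconv replicate 1 in Tconv (10) and without WT Treg replicate 2 or WT Tconv replicate 1 in WT (4 and 5). A lone array was then assumed to vary like the other groups. The score ran from -0.26 to -0.16 in Treg, 0.05 to 0.21 in Tconv, 0.09 to 0.25 in WT and -0.23 to -0.11 in NIKtg cells. With the replicate number as a block the counts were 8, 6, 15, 4 and 16, beside 19.4%, 29.6%, 38.7%, 23.5% and 40% of all genes. The slide as a block was not run, since the files used here give no slides. Dim probes such as those of Psmd5 and Psmd2 limit what can be read of their size.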
